A study of Mus musculus with 24 samples.

Results

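The genes described here are the AP-1 transcription factors, 8 genes taken by name from the 55416 gene rows of the deposited table: the Fos family (Fos, Fosb, Fosl1 and Fosl2), the Jun family (Jun, Junb and Jund) and Atf3. All 8 were found, each in 1 row, and all 8 had enough counts to be tested. RNA was sequenced from the cerebellum of 24 neonatal C57BL/6J mice, 12 given ethanol in intralipid by gavage (Ethanol) and 12 given intralipid with water in its place (Vehicle in the labels, Control in the study), as a model of late prenatal alcohol exposure. Pups of both groups were gavaged from P4 on, killed on P5 or P6 a day after the last dose under isoflurane, and perfused before dissection. No animal was left untreated, so gavage, intralipid and anesthesia are shared by both groups. The labels give treatment and an animal number and not age, sex or litter, so each value below is for P5 and P6 together. The study took a male and a female of each treatment from each litter, so litter mates are in both groups. The main test did not pair animals by litter.

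AP-1 is a dimer of basic leucine zipper proteins. Fos proteins bind DNA mainly when paired with a Jun protein, whereas Jun proteins also pair with each other, and Atf3 pairs with Jun proteins or with itself. Fos, Fosb, Jun, Junb and Atf3 are immediate early genes, whose RNA rises within minutes of a stimulus such as neuronal firing, growth factors, cytokines or stress and is then quickly degraded. Fosl1 and Fosl2 respond more slowly, and Jund is made steadily in most cells. In neural tissue Fos is used as a marker of recent activity, Jun and Atf3 are known for their induction in injured neurons, and Atf3 is in addition a target of the integrated stress response through Atf4.

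RefSeq promoters were found for 7 of the 8 genes. The 150 bases before the start site of Atf3, Fos and Jun are given because each holds a short motif known from the control of such genes, and because Atf3 had the largest change, Fos the most uneven one and Jun none that passed. They are from build GRCm38.p6, which is not the GRCm39 of the counts, and lie at chr1:191183334-191183483 (- strand), chr12:85473740-85473889 (+ strand) and chr4:95052223-95052372 (- strand). Capitals mark matches to the motifs named after them, and the last base is the one before the start site.
Atf3: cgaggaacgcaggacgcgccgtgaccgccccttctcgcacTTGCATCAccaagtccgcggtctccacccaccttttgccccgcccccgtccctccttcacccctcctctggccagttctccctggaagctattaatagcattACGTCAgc
Fos: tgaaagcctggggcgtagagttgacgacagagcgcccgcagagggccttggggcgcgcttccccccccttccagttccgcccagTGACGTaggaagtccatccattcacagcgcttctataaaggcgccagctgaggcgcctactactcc
Jun: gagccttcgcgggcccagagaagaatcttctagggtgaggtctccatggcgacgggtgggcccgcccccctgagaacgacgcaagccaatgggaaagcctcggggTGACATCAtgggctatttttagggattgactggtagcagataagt
In Atf3 the first capitals match TGATGCAA, the composite element of C/EBP and ATF factors, on the opposite strand, at 110 to 103 bases before the start, and the second match TGACGT, the core of the cyclic AMP response element, also on the opposite strand, at 8 to 3 bases before it. Of 32851 mouse promoters cut to the same 250 bases, 0.791% held TGATGCAA and 6.47% held TGACGT on either strand. In Fos the core TGACGT lies at 66 to 61 bases before the start. In Jun the capitals are TGACATCA, the AP-1 variant of the Jun promoter, at 45 to 38 bases before the start, which 2.93% of promoters held. The canonical AP-1 site TGANTCA (6.75% of promoters), the full element TGACGTCA (1.55%) and the CArG box (1.47%) had no match within the 250 bases of any of the 7 genes. The full element contains the core. These matches describe the letters and not binding, and the absence of a match says only that the letters are not in this window. The motifs were chosen with the promoters in view, so the shares do not measure how unusual a match is.

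Total counts ranged from 26982510 to 38804909 per Ethanol animal and from 29039869 to 38696572 per Vehicle animal. Values are CPM, read counts divided by library size on a fixed common scale, with library sizes adjusted by the trimmed mean of M-values (TMM). Sorted by number, the animals form 6 runs of neighbouring numbers with 4 animals each (2 Ethanol and 2 Vehicle). A run has the make-up by treatment that the study gives for a litter, but the labels do not say that runs are litters. Runs were used as a technical grouping only. The tissue is labelled as brain, whereas the study describes cerebellum. Of 17 cerebellum markers, Zic1 had the highest median at 1130 CPM, whereas the forebrain gene Emx1 did not pass 0.125 CPM in any library. Neurod6, also listed as a forebrain marker, was present at a median of 32.2 CPM. In 4 libraries (2 Ethanol and 2 Vehicle) the choroid plexus gene Ttr was at 1.15 to 3.57 CPM, against at least 322 CPM in the other 20.

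In Ethanol animals 4 of the 8 AP-1 genes were higher, Atf3, Fosl2, Junb and Fos, by factors of 1.82, 1.34, 1.41 and 1.54, and none was lower. Among all 17736 genes tested, 9.07% were higher and 5.8% lower at an adjusted p under 0.05 by edgeR's quasi-likelihood test (1608 and 1028 genes). With upper-quartile factors in place of TMM the split of all genes was 1373 higher and 1396 lower, and the same 4 members passed. Jun, Jund, Fosb and Fosl1 did not pass. At an unadjusted p under 0.05, which 28.4% of all genes reached in either direction, the count was 5, with Jun added. The count of lower members was 0 there, where 13.2% of all genes were lower, and 0 at an adjusted p under 0.05 with limma-trend, limma-voom and DESeq2. The median log2 fold change was 0.30 over the 8 members and -0.01 over all genes tested. The RNA is of whole tissue, in which more cells of a type and more RNA per cell cannot be told apart. The same holds for fewer cells and less RNA per cell.

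**Figure D1:**
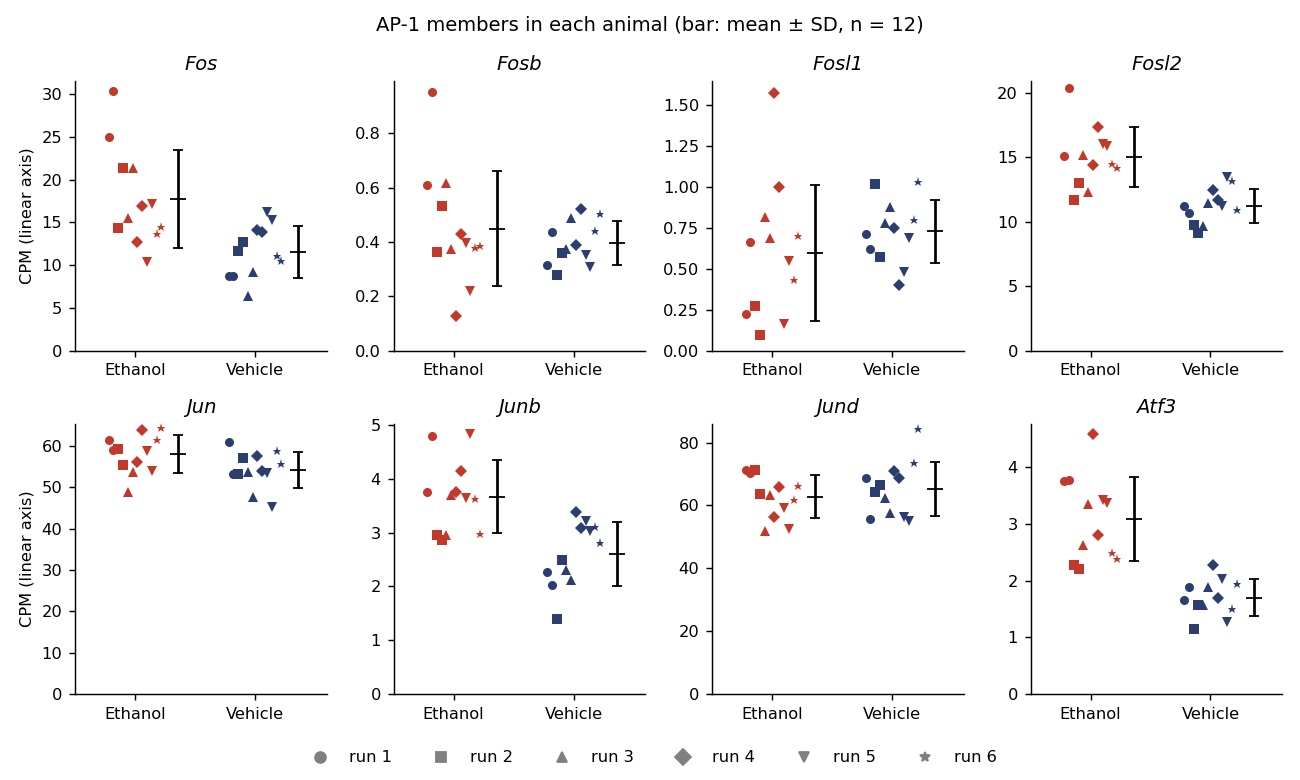
CPM (linear vertical axis) of the 8 AP-1 genes in each of 12 Ethanol (red, left) and 12 Vehicle (blue, right) animals, with a marker shape for each run of 4 animal numbers and a black bar for the mean ± SD. Atf3 overlaps only between 2.20 CPM, the lowest Ethanol animal, and 2.28 CPM, the highest Vehicle animal, whereas the clouds of Jun, Jund and Fosb cover each other.

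Atf3, which represses or activates its targets according to its partner, was the member with the largest change. It lay at 2.20, 3.07 and 4.59 CPM (lowest, median and highest) in Ethanol animals, against 1.14, 1.68 and 2.28 CPM in Vehicle animals. The groups overlapped in 1 animal of each: 11 of 12 Ethanol animals were above every Vehicle animal. The means were 3.09 ± 0.740 CPM (SD, n = 12) in Ethanol and 1.70 ± 0.323 CPM (SD, n = 12) in Vehicle animals, or 0.86 higher on the log2 scale (SE 0.12, adjusted p = 5.45e-05). In each of the 6 runs both Ethanol animals were above both Vehicle animals, as was so for 1.44% of all genes tested. The difference within runs was smallest in run 6, at 0.49 on the log2 scale, and largest in run 1, at 1.07. The lowest Ethanol animals, 2.20 and 2.28 CPM, were both of run 2, whose Vehicle animals were at 1.14 and 1.56 CPM.

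Fosl2, the Fos-family protein also called Fra-2, had the same order within runs. It lay at 11.7, 14.8 and 20.3 CPM in Ethanol animals, against 9.11, 11.2 and 13.4 CPM in Vehicle animals (lowest, median and highest). Of the Ethanol animals, 9 were above every Vehicle animal, and all 12 were above the Vehicle median. The means were 15.0 ± 2.33 CPM (SD, n = 12) in Ethanol and 11.2 ± 1.34 CPM (SD, n = 12) in Vehicle animals, or 0.42 higher on the log2 scale (SE 0.08, adjusted p = 0.000494). In 6 of 6 runs both Ethanol animals were above both Vehicle animals. The within-run difference was 0.37 to 0.39 on the log2 scale in runs 2 to 5, and 0.68 in run 1 and 0.26 in run 6.

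Junb, the Jun-family protein that can hold back Jun, was also higher. It lay at 2.86, 3.67 and 4.84 CPM in Ethanol animals, against 1.39, 2.65 and 3.39 CPM in Vehicle animals (lowest, median and highest). All 12 Ethanol animals were above the Vehicle median and 8 of them above every Vehicle animal. The means were 3.67 ± 0.676 CPM (SD, n = 12) in Ethanol and 2.60 ± 0.598 CPM (SD, n = 12) in Vehicle animals, or 0.50 higher on the log2 scale (SE 0.12, adjusted p = 0.00583). Both Ethanol animals were above both Vehicle animals in 5 of 6 runs, the exception being run 6 with 3.63 and 2.97 CPM in Ethanol animals, against 3.10 and 2.80 CPM in Vehicle animals. Vehicle animals had means of 2.15, 1.94 and 2.21 CPM in runs 1 to 3 and, in runs 4 to 6, means of 3.23, 3.12 and 2.95 CPM, and the test of levels between runs did not pass (adjusted p = 0.109). Without run 1 the adjusted p was 0.0491.

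Fos, the founding member of its family and the usual marker of recent neuronal activity, was the most uneven of the genes that rose. It lay at 10.4, 16.2 and 30.3 CPM in Ethanol animals, against 6.37, 11.4 and 16.2 CPM in Vehicle animals (lowest, median and highest). Only 6 of 12 Ethanol animals were above every Vehicle animal. The means were 17.7 ± 5.73 CPM (SD, n = 12) in Ethanol and 11.5 ± 2.99 CPM (SD, n = 12) in Vehicle animals, or 0.62 higher on the log2 scale (SE 0.17, adjusted p = 0.0136), with 11 of 12 Ethanol animals above the Vehicle median. The call was lost when either of 2 runs was left out: the log2 fold change was 0.39 (adjusted p = 0.105) without run 1 and 0.52 (adjusted p = 0.066) without run 3.

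The Fos values of each run, 2 animals against 2, are given as a description. In run 1 the Ethanol animals were at 25.0 and 30.3 CPM, against 8.69 and 8.78 CPM in the Vehicle animals, a difference of 1.65 on the log2 scale. In run 3 they were at 15.5 and 21.3 CPM, against 6.37 and 9.19 CPM in Vehicle animals, a difference of 1.24. The groups were apart in runs 2 and 6 as well, by 0.52 and 0.38. They were not apart in run 4, at 12.7 and 16.9 CPM in Ethanol animals, against 14.1 and 13.8 CPM in Vehicle animals, or in run 5, at 10.4 and 17.2 CPM in Ethanol animals, against 16.2 and 15.3 CPM in Vehicle animals. The mean of the Vehicle animals was lowest in runs 3 and 1, at 7.78 and 8.73 CPM, and highest in run 5, at 15.7 CPM, while the test of levels between runs gave Fos an adjusted p of 0.798. A test of whether the ethanol difference was the same in all runs gave Fos an unadjusted p of 0.000275 and an adjusted p of 0.125, so the difference between runs did not pass. By that test 0.0677% of all genes did. With no filter on low counts it passed for Fos, Fosl1 and Jund, in a fit that called 1203 of all genes, against 12. No source used here says which runs were taken at P5 and which at P6.

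**Figure D2:**
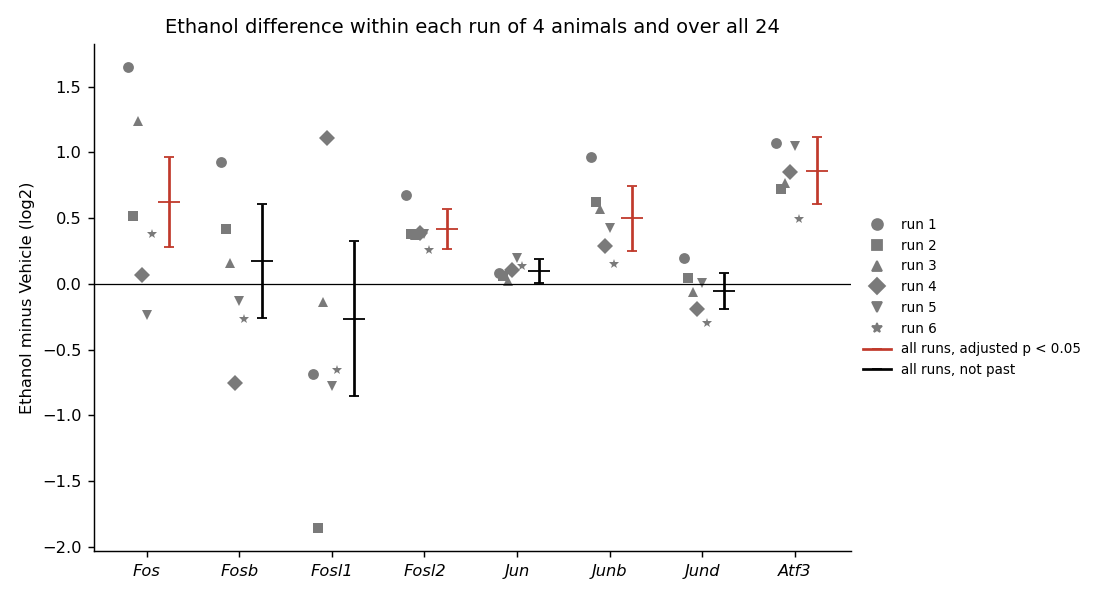
Difference of Ethanol minus Vehicle (log2, vertical axis) for each AP-1 gene: grey markers give the difference of the means of log2 CPM in each of 6 runs of 4 animals, and the bar beside them the log2 fold change of edgeR over all 24 animals with its 95% confidence interval, red where the adjusted p is under 0.05. All 6 markers lie above 0 for Atf3, Fosl2, Junb and Jun, whereas those of Fos run from -0.24 to 1.65.

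Jun, the best known partner of the Fos proteins, differed little from its Vehicle level, and the difference did not pass. The paper reports that ethanol increased Fos and Jun transcripts at P5, an age that cannot be separated here from P6. Jun lay at 48.9, 58.9 and 64.3 CPM in Ethanol animals, against 45.3, 53.9 and 61.0 CPM in Vehicle animals (lowest, median and highest). The ranges largely covered each other. The log2 fold change was 0.10 (SE 0.04, adjusted p = 0.146), with a 95% interval of 0.01 to 0.19 before any adjustment, which bounds a higher level to a factor of 1.14. The run means were above those of Vehicle in 6 of 6 runs, as for 11.2% of all genes tested, by 0.02 to 0.19 on the log2 scale.
Jund, the steadily made Jun protein, lay at 51.8, 63.5 and 71.3 CPM in Ethanol animals, against 54.9, 65.3 and 84.2 CPM in Vehicle animals (lowest, median and highest). Its log2 fold change was -0.06 (SE 0.07, adjusted p = 0.642; 95% interval -0.19 to 0.08), and its sign was positive in 3 runs and negative in 3.

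The other 2 Fos genes had few counts. Fosb, whose full-length and truncated (delta FosB) messages are not told apart in counts per gene, had 5 to 33 counts per library. It lay at 0.129, 0.391 and 0.952 CPM in Ethanol animals, against 0.277, 0.383 and 0.523 CPM in Vehicle animals (lowest, median and highest). The highest value, 0.952 CPM, belonged to the same Ethanol animal of run 1 that was highest in Fos and Fosl2. The log2 fold change was 0.17 (SE 0.21, adjusted p = 0.642), and it was 0.01 without that animal and -0.07 without run 1.
Fosl1, also called Fra-1, had 3 to 61 counts per library and lay at 0.0942, 0.607 and 1.57 CPM in Ethanol animals, against 0.400, 0.732 and 1.03 CPM in Vehicle animals. Its log2 fold change was -0.27 (SE 0.29, adjusted p = 0.595; 95% interval -0.86 to 0.32). Run 4 stood apart, with 1.57 and 0.998 CPM in Ethanol animals, against 0.749 and 0.400 CPM in Vehicle animals, while in the other 5 runs the Ethanol mean was the lower one. The log2 fold change of Fosl1 was -0.52 (adjusted p = 0.199) without the Ethanol animal at 1.57 CPM, -0.72 (adjusted p = 0.0902) without run 4 and -0.06 (adjusted p = 0.915) without run 2. It was -0.50 with limma-trend and -0.56 with limma-voom, and it passed under none of its alternatives.

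Set on a scale per length (CPM per kilobase of the longest coding transcript in GENCODE M21), the order of the levels was the same in both groups: Jund, Jun, Fos, Fosl2, Junb, Atf3, Fosl1 and Fosb. Jund stood at 37.6 ± 4.06 CPM per kilobase (SD, n = 12) in Ethanol and 39.1 ± 5.21 in Vehicle animals. Jun stood at 18.2 ± 1.43 in Ethanol and 17.0 ± 1.38 in Vehicle animals, and Fos at 8.42 ± 2.72 in Ethanol and 5.47 ± 1.42 in Vehicle animals. Fosl2 and Junb, at 2.29 ± 0.356 and 2.03 ± 0.374 in Ethanol and 1.72 ± 0.205 and 1.44 ± 0.331 in Vehicle animals, were neighbours within their spread, as were Junb and Atf3 and also Fosl1 and Fosb in Ethanol animals but not in Vehicle animals. Fosb was at the foot of the order, at 0.119 ± 0.0560 in Ethanol and 0.105 ± 0.0213 in Vehicle animals. The 2 most abundant genes on this scale, Jund and Jun, were thus not among those that passed as higher.

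The members also differed in how far animals of 1 group lay apart. The dispersion between animals beyond counting error placed Fosl1 at the 98.2 percentile of all genes tested, Fos at the 94.2, Fosb at the 92.7, Atf3 at the 84.6, Junb at the 83.8, Fosl2 at the 68.4, Jund at the 63.4 and Jun at the 41.6 percentile. As a coefficient of variation, Fos spread by 32.3% in Ethanol and 25.9% in Vehicle animals and Jun by 7.87% in Ethanol and 8.12% in Vehicle animals. Fosb spread by 47.1% in Ethanol and 20.2% in Vehicle animals, and Fosl1 by 69.4% in Ethanol and 26.7% in Vehicle animals. This difference of spread was not tested. Unlike the dispersion, the coefficient of variation includes counting error, which weighs most in Fosb and Fosl1 with their few counts. The percentiles of dispersion were ranked over genes of all levels, without regard to the level of each gene. Between runs, none of the 8 genes differed at an adjusted p under 0.05 (edgeR, 0.0666 to 0.798), where 6.5% of all genes did. The count at an unadjusted p under 0.05 was 5, without Fos, Fosb and Fosl1, beside 23.6% of all genes, and limma-trend gave 0 and 5 as well.

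Of 28 pairs of members, 3 were correlated across the 24 animals once the group means were taken away (log2 CPM, permutation within groups, adjusted over the pairs). Jun and Jund had Pearson's r = 0.68 (adjusted p = 0.0106) and Spearman's rho = 0.71 (adjusted p = 0.00644). Without the 2 animals farthest from the median of Jun the r was 0.56. Fosl2 and Junb had r = 0.63 (adjusted p = 0.0106, rho = 0.67 with adjusted p = 0.0109, r = 0.57 without the 2 farthest animals in Fosl2), and Junb and Atf3 had r = 0.56 (adjusted p = 0.0392, rho = 0.56 with adjusted p = 0.0536, r = 0.44 without the 2 farthest animals in Junb). Fos and Jun, the classical pair, had r = -0.10, and Fos and Fosb r = 0.39 (adjusted p = 0.337). The latter was 0.25 without the 2 farthest animals in Fos and 0.10 without the 2 farthest in Fosb.
Within runs the picture changed. There the 2 animals of a run and treatment mirror each other once centred, so r rests on fewer independent values than animals. With the mean of each run and treatment taken away, Jun and Jund had r = 0.72 (adjusted p = 0.156, unadjusted p = 0.00557), whereas Fosl2 and Junb had r = 0.01 and Junb and Atf3 r = 0.27. The r of those 2 pairs was thus lower within runs, a drop that was not tested. No pair passed there, and 1 pair did at an unadjusted p under 0.05.

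**Figure D3:**
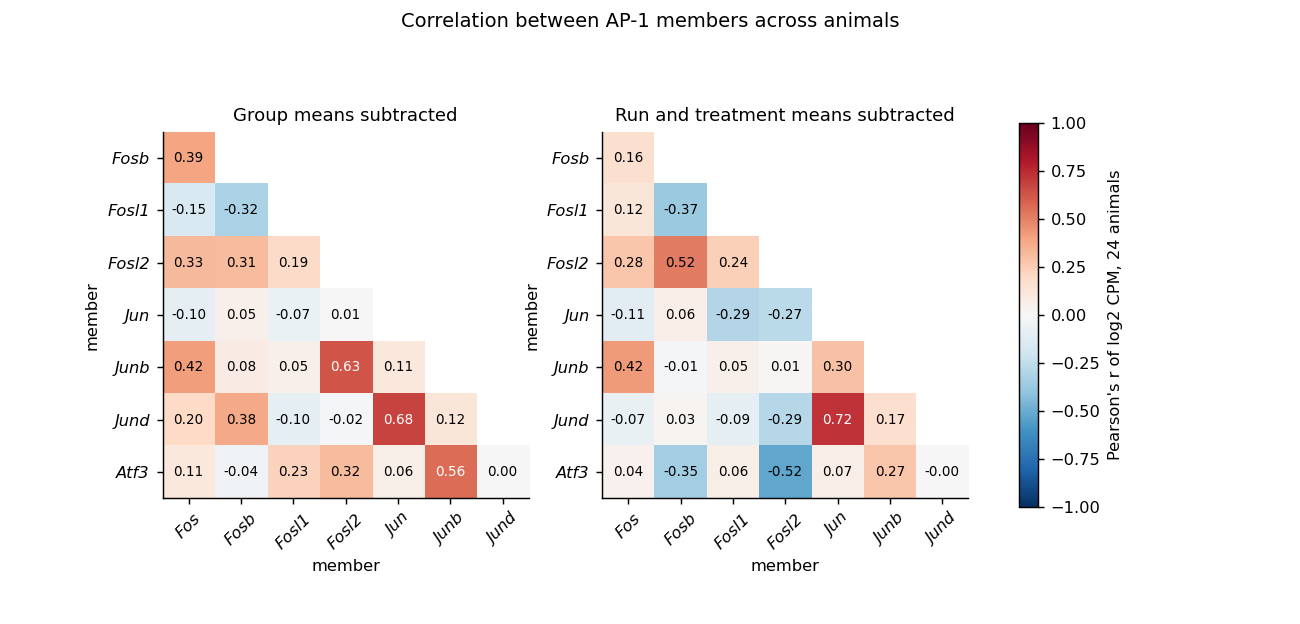
Pearson's r of log2 CPM between each pair of the 8 AP-1 genes (members on both axes) over 24 animals, with group means subtracted (left) and with the mean of each run and treatment subtracted (right). Jun with Jund is at 0.68 on the left and 0.72 on the right, whereas Fosl2 with Junb is at 0.63 on the left and 0.01 on the right. On the right the 2 animals of a run and treatment mirror each other, so that r rests on fewer independent values than 24.

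Genes whose animal-to-animal pattern was most like that of a member were sought over all genes tested, by Pearson's r of group-centred log2 CPM over the 24 animals. These are the highest of many values and are given as a description. For Fos they were Stat3 (r = 0.85), a transcription factor activated by cytokine receptors, Plek (0.75), a cytoskeletal protein of blood and myeloid cells, and Edar (0.74), with r of 0.84, 0.76 and 0.48 within runs. Stat3 itself had a log2 fold change of 0.21 (adjusted p = 0.00192) and Plek one of 0.48 (adjusted p = 0.000493). For Atf3 they were Arl14ep (0.82), Iars (0.71), the isoleucyl-tRNA synthetase, and Tfam (0.69), the packaging factor of mitochondrial DNA, with 0.67, 0.46 and 0.91 within runs. Iars had a log2 fold change of 0.33 (adjusted p = 7.83e-08). For Junb the first was Ch25h (0.84, and 0.65 within runs), the enzyme that hydroxylates cholesterol, with a log2 fold change of 1.065 (adjusted p = 0.0181). For Jun the first were Sphk2 (0.82), a sphingosine kinase, and Zc3h18 (0.78), and for Fosb Rnf145 (0.74). Each r within runs rests on fewer independent values than 24, as for the pairs of members.

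Around the members, other genes of the pathway were counted in lists written from general knowledge, but with earlier results of these data known. The counts stand beside the same 9.07% higher and 5.8% lower among all genes as a description and not as a test. Of 11 tested bZIP partners of the AP-1 superfamily, 3 were higher and 8 did not pass, with none lower. Mafg, a small Maf protein that pairs with CNC factors such as Nrf2, was at 86.4 ± 4.29 CPM (SD, n = 12) in Ethanol and 73.5 ± 4.53 CPM (SD, n = 12) in Vehicle animals, or 0.23 higher on the log2 scale (SE 0.03, adjusted p = 4.28e-05). Batf3, a Jun partner of immune cells, had 0.47 (SE 0.12, adjusted p = 0.0116), and Mafk, a further small Maf protein, had 0.21 (SE 0.06, adjusted p = 0.0139).
Of 26 kinases and factors upstream of AP-1, 3 were lower and 1 higher, and the other 22 did not pass. The higher one was Map3k12, the dual leucine zipper kinase that drives Jun N-terminal kinase signaling in injured neurons, at 0.18 (SE 0.04, adjusted p = 0.00428). The lower ones were Mef2c, a transcription factor of neurons and microglia, at -0.13 (SE 0.04, adjusted p = 0.013), Map3k1, a kinase above the same pathway, at -0.20 (SE 0.06, adjusted p = 0.0229), and Elk1, which acts with serum response factor at the Fos promoter, at -0.14 (SE 0.05, adjusted p = 0.0385).
Of 19 feedback phosphatases and destabilizers, 2 were higher and 17 did not pass. Zfp36, the tristetraprolin gene whose protein degrades messages with AU-rich elements such as that of Fos, was at 6.37 ± 1.29 CPM (SD, n = 12) in Ethanol and 4.50 ± 0.446 CPM (SD, n = 12) in Vehicle animals, or 0.50 higher on the log2 scale (SE 0.09, adjusted p = 0.000369). Dusp5, a phosphatase of nuclear ERK, had 0.39 (SE 0.06, adjusted p = 0.000169). Both were above the Vehicle median in all 12 Ethanol animals.

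Among 24 genes with known AP-1 sites, 19 had enough counts. Ethanol animals had higher levels of 8 and a lower level of 1, and 10 did not pass. Cd44, a hyaluronan receptor, differed by 0.47 on the log2 scale (SE 0.08, adjusted p = 0.000251). Ccl2, a chemokine that attracts monocytes, had 1.46 (SE 0.27, adjusted p = 0.000685) at low levels, 0.690 ± 0.402 CPM (SD, n = 12) in Ethanol and 0.246 ± 0.0920 CPM (SD, n = 12) in Vehicle animals. Plaur, the urokinase receptor, had 0.66 (SE 0.13, adjusted p = 0.000935). The lower gene was Ezr, which links the membrane to actin, at -0.20 (SE 0.04, adjusted p = 0.00126). The textbook AP-1 targets Mmp3 and Mmp13, and Il6, did not reach more than 6 counts in any library and were not tested. These genes answer to other factors too, and AP-1 binding was not measured.
Of 28 other immediate early genes tested, the test called 7 higher and 1 lower, leaving 20 that did not pass. They include Klf6, a zinc finger factor, at 0.29 (SE 0.04, adjusted p = 0.000102), Gadd45b, a stress-responsive gene, at 0.49 (SE 0.09, adjusted p = 0.000756), and Trib1, a pseudokinase, at 0.15 (SE 0.04, adjusted p = 0.00493). The lower one was Klf10, a TGF-beta-induced factor, at -0.17 (SE 0.05, adjusted p = 0.0276).
Of 19 genes of the integrated stress response, 12 passed as higher and 1 as lower, and 6 did not pass. Cebpg, a bZIP partner of Atf4, had 0.55 (SE 0.05, adjusted p = 4.36e-08), Chac1, which degrades glutathione, 1.83 (SE 0.23, adjusted p = 3.05e-05), and Sesn2, a leucine sensor, 0.50 (SE 0.08, adjusted p = 9.97e-05). The lower one was Ppp1r15a, the phosphatase subunit that ends the response, at -0.20 (SE 0.05, adjusted p = 0.0084). The list medians of the log2 fold change were 0.22 for the stress response, 0.17 for the bZIP partners, 0.14 for the immediate early genes, 0.11 for genes with AP-1 sites, 0.04 for the feedback genes and 0.00464 for the upstream kinases and factors, beside -0.01 over all genes.

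**Figure D4:**
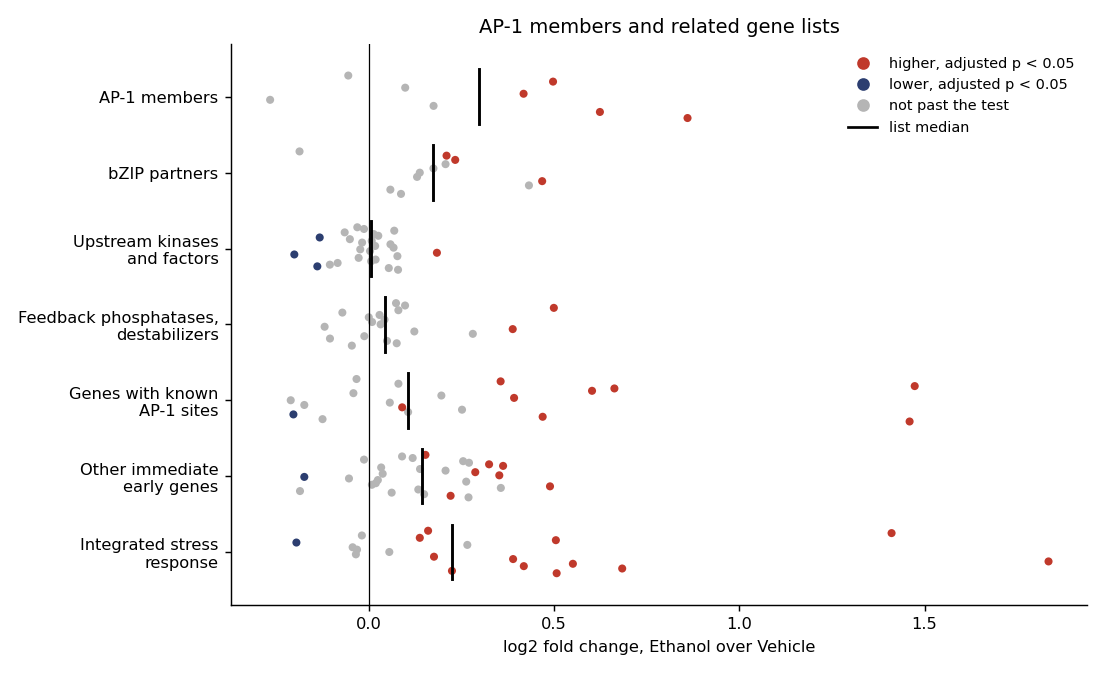
Log2 fold change of Ethanol over Vehicle (horizontal axis) for the tested genes of 7 lists, 1 point per gene, red where higher and blue where lower at an adjusted p under 0.05, grey otherwise, with the list median as a black line. The AP-1 genes have 4 red points and no blue one, and the upstream kinases and factors 1 red and 3 blue points around 0.

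Markers of tissue and cell types were counted as well, as a description beside 9.07% higher and 5.8% lower among all genes tested. Of 17 cerebellum markers 1 was higher and 2 were lower, and of 5 tested forebrain markers 0 passed (edgeR). Of 16 microglia markers 6 were higher and 2 lower, and their summed level was 276 to 441 CPM in Ethanol and 240 to 344 CPM in Vehicle animals. Of 15 endothelial markers 1 was higher and 6 were lower, with sums of 567 to 682 CPM in Ethanol and 611 to 689 CPM in Vehicle animals. Of 12 markers of meninges and fibroblasts 3 were lower, with sums of 1091 to 1642 CPM in Ethanol and 1141 to 1823 CPM in Vehicle animals, and of 8 tested blood cell markers 1 was lower, with sums of 25.3 to 295 CPM in Ethanol and 64.0 to 253 CPM in Vehicle animals. None of 15 choroid plexus markers passed (edgeR), with sums of 140 to 6092 CPM in Ethanol and 128 to 6097 CPM in Vehicle animals. Median sums in Ethanol and Vehicle animals were 307 and 260 CPM for microglia and 621 and 643 CPM for endothelial markers. They were 1470 and 1688 CPM for meninges and fibroblasts, 70.6 and 127 CPM for blood cells and 2537 and 3354 CPM for choroid plexus. AP-1 genes can be expressed in each of these cell types, and their part in the differences above was not tested. Without the 4 libraries low in Ttr the 4 genes that rose all still passed, at adjusted p of 0.000259 for Atf3, 0.00359 for Fosl2, 0.00866 for Junb and 0.0295 for Fos.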

How the data were processed

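Reads were processed with nf-core/rnaseq by the authors, who deposited estimated counts for each gene, not scaled between libraries. STAR, Salmon, limma and the build GRCm39 are named in the submitters' processing notes. The sources used here give neither the annotation release nor the strand setting. The labels and the study's methods describe different homogenizers and RNA kits. Each of the 24 columns was matched to its label through the animal number. Counts were rounded (10.918% of values lay further than 0.01 from a whole number), filtered with filterByExpr to 17736 genes, scaled by TMM and fitted in edgeR 4.0.16 (R 4.3.3) (robust quasi-likelihood, 22 residual degrees of freedom, Benjamini-Hochberg over all genes, threshold 0.05), where the study used limma on log2 CPM. Standard errors came from the F statistic, and the spread is between animals, each library being 1 animal by label. Runs were tested beside treatment in one fit, and the ethanol difference between runs by their interaction. Correlations used log2 CPM (prior count 2) and two-sided permutation tests with 100000 resamples (Python 3.11.15, numpy 2.4.6), exchanging animals within treatments or, for values centred on run and treatment, whole pairs of animals.

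Alternatives were limma-trend and limma-voom (limma 3.58.1), DESeq2 1.42.0, scaling by RLE or by upper quartiles, leaving out the filter, a stricter filter (1 CPM in 12 libraries), the run as a block, counts not rounded, and leaving out each animal, each run or the libraries low in Ttr. The code was tested on simulated data. All 8 members are named, with the 3 genes of smallest p in each direction from each list of the pathway and the 3 genes most like Fos, Fosb, Jun, Junb and Atf3, of which the text gives the leading ones. Members and lists were chosen with earlier results of these data known, and motifs with the promoters in view.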

Additional observations from a re-analysis of the deposited data

How the results depend on the processing

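Of the 8 AP-1 genes, Atf3, Fosl2 and Junb kept their direction and passed under all 40 alternatives, with highest adjusted p of 0.000859, 0.0041 and 0.0491, each without run 1, and log2 fold changes of 0.79 to 0.93, 0.36 to 0.45 and 0.40 to 0.57. Fos passed in 38 of 40, and its log2 fold change ranged from 0.39 to 0.79. It missed without run 1 (0.39, adjusted p = 0.105) and without run 3 (0.52, adjusted p = 0.066), so that 3 members were higher in those settings and 4 in the others, and leaving out any single animal did not end its call (highest adjusted p = 0.0295). Jun, Jund, Fosb and Fosl1 passed under no alternative, and Fosb and Fosl1 were not tested under the stricter filter. The log2 fold change of Fosl1 ranged from -0.72 without run 4 to -0.06 without run 2. Signs turned for Fosb without run 1 (-0.07378) and for Jund without run 6 (0.004553). The count of all genes lower, 1028, was 662 with no filter, 612 when the 4 Ttr-low libraries were left out, 616 without run 1, 612 without run 3 and 499 without run 4. With no filter the test of runs called 6 members, and that of the ethanol difference between runs called 3 (Fos, Fosl1 and Jund), where the reported tests called 0. That setting also called 3467 and 1203 of all genes, against 1153 and 12, and the cause was not tested. The count of correlated pairs, 3, was 0 within runs. The groups share no animal number by which single animals could be paired, and the labels do not give the litters that both groups share. With the run as a block in edgeR the same 4 members passed, and Jun had an adjusted p of 0.0527. Fosb and Fosl1 had both low counts and high dispersion between animals, and counts per gene do not tell isoforms apart.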
